A study of Trichoderma asperellum with 12 samples.

Results

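Hydrophobins of Trichoderma asperellum TJ01 were taken as every gene whose closest protein match in the deposited annotation holds the word hydrophobin, which gave 12 genes of the 11647 in the table. Transcripts were measured by RNA-seq in 12 libraries. All of them came from strain TJ01, grown from a spore suspension in PD medium for 24 h and then shaken for 24 h at 28 °C and 180 rpm in Burk broth, a nitrogen-poor medium. The broth held no dichlorvos in the control (CK) and 100, 500 or 1000 μg/mL dichlorvos in the treated groups, with 3 libraries in each group. Dichlorvos is an organophosphorus insecticide, and the comparison asks how the transcripts of this fungus follow its dose. The labels name no genetic change in this strain, and 24 h of exposure is the single time in these libraries.

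Hydrophobins are small, secreted, cysteine-rich proteins made by filamentous fungi. They gather at the boundary between water and air or between water and a solid, and there form an amphipathic film. Such films coat aerial hyphae and spores, let hyphae leave the water, and help hyphae to attach to hydrophobic surfaces. In Trichoderma reesei, HFB1 (HFBI) is known as a hydrophobin of vegetative mycelium and HFB2 (HFBII) as one of conidia, and in T. asperellum the hydrophobin TasHyd1 is known for its part in root attachment.

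Values are FPKM, which divide the fragments of a gene by the length of its transcript and by the fragments of the library, so levels of different genes can be compared per length. Log2 fold changes are differences between group means of log2(FPKM + 1), tested with limma on the 8916 genes whose FPKM averaged 1 or more. Genes with an absolute log2 fold change above 1 and a p under 0.05 after Benjamini-Hochberg adjustment were called upregulated (higher) or downregulated (lower). Of the 12 hydrophobins, 9 passed the filter on low values and 3 did not. These are cultures of a single fungus, so fewer cells of a type and less RNA per cell cannot be told apart. The study's methods state that each experiment was run in triplicate. Neither they nor the labels say whether the libraries of a group came from separate cultures, and p-values then measure only the spread between these libraries.

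Control replicate 1 stood apart from the other controls. Its correlation with control replicates 2 and 3, across genes, which are not independent replicates, was 0.897 and 0.895, against 0.984 between those 2, and its depth estimated from the smallest FPKM steps was 0.824 times that of control replicate 2, against 0.983 to 1.03 in the other libraries. The sum of FPKM over all genes was between 895521 and 958261 per library. Hydrophobin levels are therefore given with control replicate 1 apart, and counts of calls with and without it. Leaving it out also moved the median log2 fold change of all tested genes from 0.02, 0.10 and 0.18 to 0.20, 0.28 and 0.37 at the 3 doses.

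As a group, hydrophobins held a larger part of the FPKM sum at the highest dose than in the controls. Together they held 2.06% and 2.21% of the FPKM sum in control replicates 2 and 3, against 1.22% in control replicate 1. They held 2.55% to 3.37% at 100 μg/mL, 2.68% to 3.30% at 500 μg/mL and 3.49% to 3.78% at 1000 μg/mL dichlorvos, so the 1000 μg/mL libraries lay above all others and the 2 lower doses overlapped. Most of the hydrophobin sum came from jgi_Trias1_54184 and jgi_Trias1_57390, which together held between 79.3% and 94.2% of it in every library. From control replicates 2 and 3 to 1000 μg/mL, the share of jgi_Trias1_54184 in the FPKM sum of all genes rose and that of jgi_Trias1_57390 fell.

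**Figure D1:**
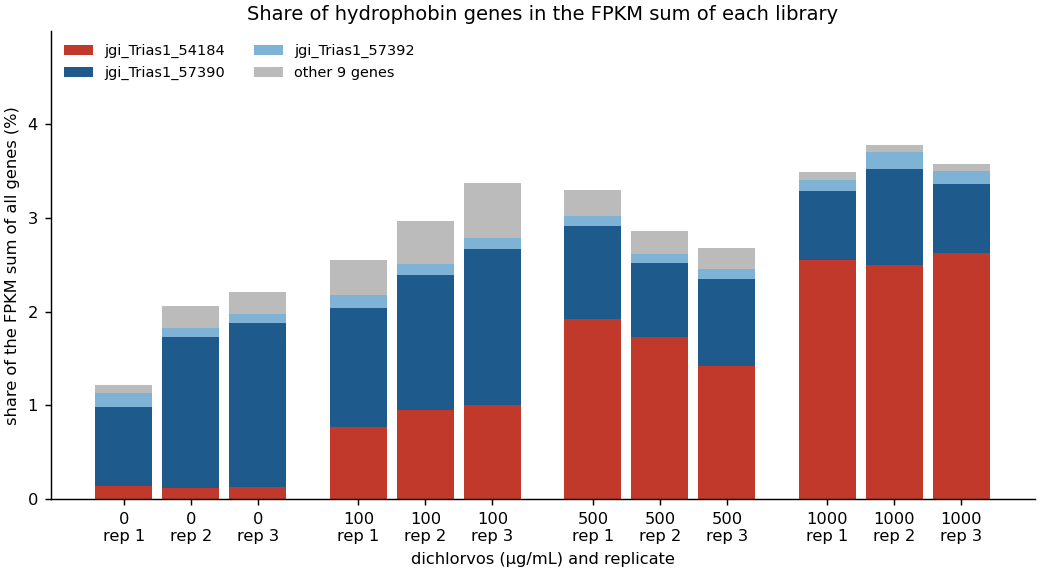
Share of the FPKM sum of all genes (y axis, %) held by hydrophobin genes in each of the 12 libraries (x axis, dichlorvos in μg/mL and replicate), stacked by gene. The share of jgi_Trias1_54184 was 0.14% in control replicate 1, 0.118% and 0.131% in the other controls, and 2.50% to 2.63% at 1000 μg/mL, while that of jgi_Trias1_57390 was 1.61% and 1.74% in control replicates 2 and 3 and 0.730% to 1.02% at 1000 μg/mL.

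The most abundant hydrophobin and the one with the largest rise was jgi_Trias1_54184, which carries the symbol HFB1 in the RefSeq annotation of another T. asperellum strain (assembly ASM2064786v1). Control replicates 2 and 3 had 1115 and 1229 FPKM, and control replicate 1 had 1257. It was 7042, 9137 and 9612 at 100 μg/mL, 17807, 16302 and 13470 at 500 μg/mL, and 24209, 23825 and 25197 at 1000 μg/mL. The 4 groups did not overlap, and control replicate 1 lay beside the other controls. From rank 68 to 128 among all genes of a control library, it moved to ranks 5 to 7 at 100 μg/mL and rank 2 at 500 μg/mL, and at 1000 μg/mL it was the gene with the highest FPKM of the table in each of the 3 libraries (rank 1). Mean FPKM was 24411 ± 708 (SD, n = 3) at 1000 μg/mL and 1172 ± 80.4 (SD, n = 2) in control replicates 2 and 3, a ratio of 20.8, or 20.3 with control replicate 1.

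jgi_Trias1_54184 was upregulated at each dose. Its log2 fold change by limma was 2.83 ± 0.24 (SE, adjusted p = 1.4e-05) at 100 μg/mL, 3.71 ± 0.24 (adjusted p = 3.8e-07) at 500 μg/mL and 4.35 ± 0.24 (adjusted p = 3.6e-08) at 1000 μg/mL. Without control replicate 1 it was 2.86, 3.75 and 4.38, and the call held in every alternative run. Against 100 μg/mL, 1000 μg/mL raised it further, by 1.52 ± 0.24 on the log2 scale (adjusted p = 0.00057 by limma).

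**Figure D2:**
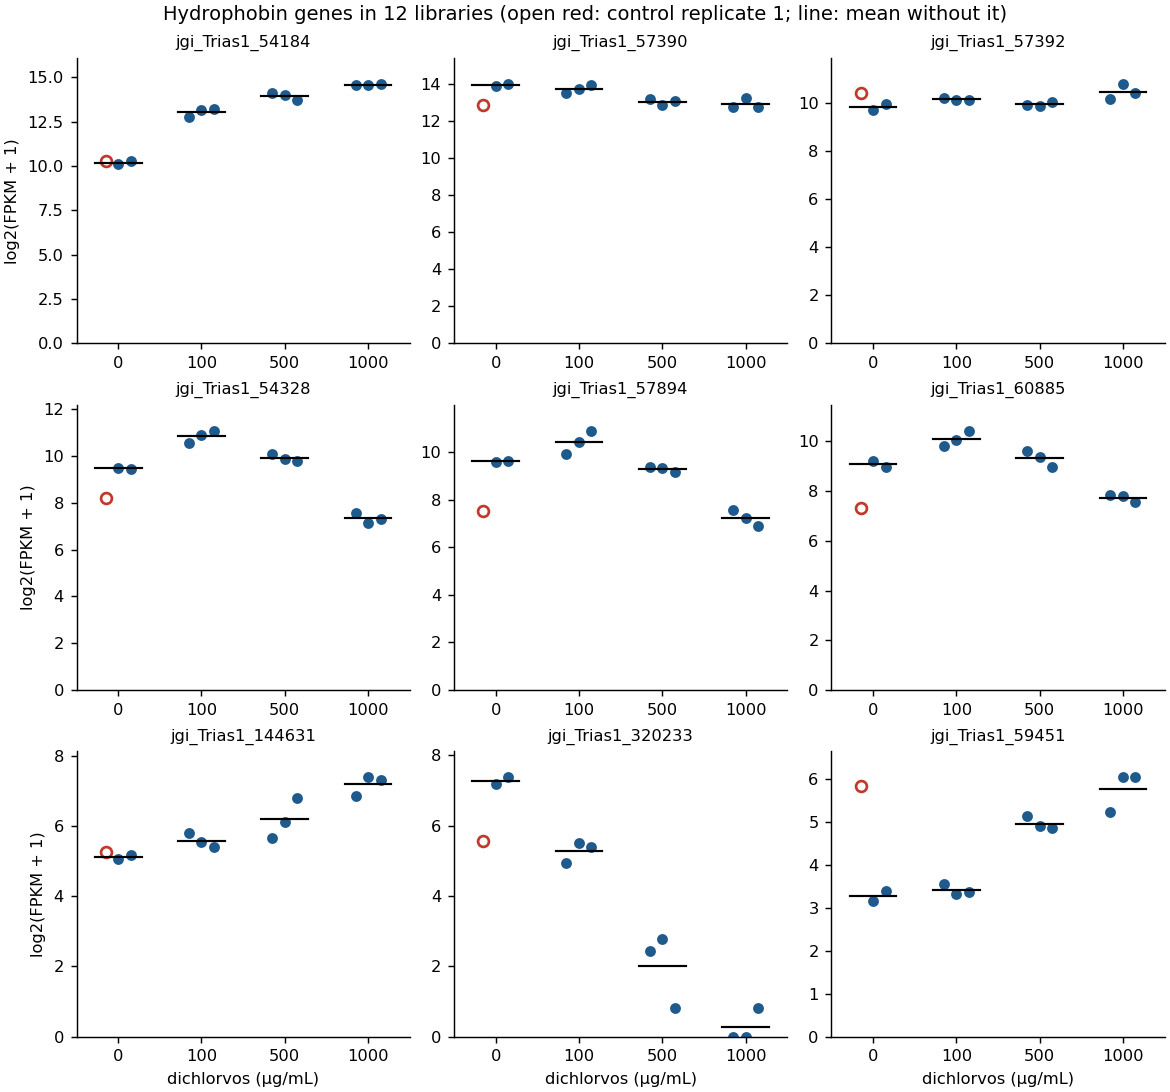
log2(FPKM + 1) of the 9 hydrophobin genes that passed the filter (1 panel per gene) against the dichlorvos dose (μg/mL). Points are libraries, the open red point is control replicate 1 and lines are group means without it. The controls of jgi_Trias1_54184 lie together at 1115 to 1257 FPKM, whereas control replicate 1 of jgi_Trias1_59451 lies at 56.4 FPKM, beside the 1000 μg/mL libraries at 36.6 to 64.8.

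jgi_Trias1_57390, whose closest match is a hydrophobin of T. atroviride, was the most abundant hydrophobin without dichlorvos. Its FPKM was 15238 and 16363 in control replicates 2 and 3, where it was the highest gene of the table (rank 1), but 7562 in control replicate 1. Treated libraries had 11614, 13690 and 15861 at 100 μg/mL, 9279, 7354 and 8762 at 500 μg/mL, and 6989, 9761 and 6998 at 1000 μg/mL. Control replicate 1 thus lay among the libraries of the 2 higher doses, and the 100 μg/mL libraries overlapped control replicates 2 and 3. Over 12 libraries no dose passed the test, with a log2 fold change of -0.66 ± 0.33 (SE, adjusted p = 0.13 by limma) at 1000 μg/mL, where leaving out control replicate 1 gave -1.01 ± 0.23 (adjusted p = 0.0024) and a call. At 500 μg/mL the value without that library was -0.91 (adjusted p = 0.0076 by limma), short of the fold asked for, but with each library also centred on its median it was -1.29 (adjusted p = 0.0019) and a call.

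The 2 most abundant hydrophobins changed places as the dose rose. The ratio of jgi_Trias1_54184 to jgi_Trias1_57390 was 0.0732 and 0.0751 in control replicates 2 and 3, against 0.166 in control replicate 1. It was 0.606 to 0.667 at 100 μg/mL, 1.54 to 2.22 at 500 μg/mL and 2.44 to 3.60 at 1000 μg/mL, with no overlap between groups. Within the hydrophobin sum, jgi_Trias1_54184 held 11.5% in control replicate 1, 5.74% and 5.92% in the other controls, and 66.0% to 73.6% at 1000 μg/mL. jgi_Trias1_57390 held 69.2% in control replicate 1, 78.4% and 78.7% in the others, and 20.4% to 27.1% at the highest dose.

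jgi_Trias1_57392, the neighbour of jgi_Trias1_57390 in the gene order of assembly ASM2064786v1, differed little between groups. This gene, also matched to a T. atroviride hydrophobin, had an FPKM of 831 and 977 in control replicates 2 and 3, beside 1337 in control replicate 1. The FPKM was 1179, 1101 and 1104 at 100 μg/mL, 968, 930 and 1044 at 500 μg/mL, and 1149, 1747 and 1353 at 1000 μg/mL. No dose was called for it in any alternative, and at 1000 μg/mL it differed by 0.44 on the log2 scale (95% interval -0.03 to 0.91, adjusted p = 0.13 by limma), or 0.63 (0.24 to 1.02, adjusted p = 0.011) without control replicate 1. In the F-test over the 4 groups, jgi_Trias1_57390 and jgi_Trias1_57392 were the 2 tested hydrophobins that did not pass (adjusted p = 0.16 and 0.26 by limma), and without control replicate 1 both passed (0.0035 and 0.031).

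Another 3 hydrophobins were highest at the lowest dose and lowest at the highest dose. They are jgi_Trias1_54328, matched to a hydrophobin of T. harzianum, jgi_Trias1_57894, matched to a small molecular hydrophobin protein of T. asperellum, and jgi_Trias1_60885, matched to the trihydrophobin CFTH1 of the ergot fungus Claviceps fusiformis, a protein named for its repeated hydrophobin units.

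For jgi_Trias1_54328, control replicates 2 and 3 had 715 and 700.4 FPKM, and control replicate 1 had 289. It was 1500.4, 1885 and 2154 at 100 μg/mL, 1079.7, 934 and 870.3 at 500 μg/mL, and 188, 138 and 158 at 1000 μg/mL. The 4 groups did not overlap, and control replicate 1 lay between the other controls and the 1000 μg/mL libraries. The gene was upregulated at 100 μg/mL, with a log2 fold change of 1.80 ± 0.31 (SE, adjusted p = 0.0034 by limma), and downregulated at 1000 μg/mL, by -1.71 ± 0.31 (adjusted p = 0.00091). Without control replicate 1 these were 1.37 (adjusted p = 0.00041) and -2.14 (adjusted p = 1.8e-06). When the control and 100 μg/mL were fitted alone, the first was not called (adjusted p = 0.079). At 500 μg/mL it was 0.86 (adjusted p = 0.068 by limma), and leaving out control replicate 2 or 3 gave 1.09 and 1.07 and a call, but leaving out control replicate 1 gave 0.44.

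jgi_Trias1_57894 had an FPKM of 766 and 798 in control replicates 2 and 3, against 184 in control replicate 1. Its values were 977, 1357 and 1908 at 100 μg/mL, 662, 635 and 579 at 500 μg/mL, and 188, 147 and 118 at 1000 μg/mL. Apart from control replicate 1 the groups did not overlap, and that library lay among the 1000 μg/mL libraries. In the 100 μg/mL comparison jgi_Trias1_57894 had a log2 fold change of 1.49 ± 0.46 (SE, adjusted p = 0.079 by limma), which became a call without control replicate 2 (1.83, adjusted p = 0.048) or 3 (1.86, adjusted p = 0.046) but was 0.80 (adjusted p = 0.048) without control replicate 1. At 1000 μg/mL it was downregulated, by -1.70 ± 0.46 (adjusted p = 0.012 by limma), or -2.39 ± 0.25 (adjusted p = 8.3e-06) without control replicate 1. Fitted alone, these 2 groups gave no call (adjusted p = 0.056).

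jgi_Trias1_60885 had 592 and 502 FPKM in control replicates 2 and 3, against 159 in control replicate 1, the lowest of all libraries. Values of 907, 1079 and 1382 were found at 100 μg/mL, 779, 659 and 505 at 500 μg/mL, and 229, 223 and 191 at 1000 μg/mL. The 100 μg/mL libraries lay above and the 1000 μg/mL libraries below every other library except control replicate 1, and those at 500 μg/mL overlapped the controls. The gene was called higher at 100 μg/mL, with 1.61 ± 0.39 on the log2 scale (SE, adjusted p = 0.029 by limma). That call was lost without any 1 of the 3 libraries at 100 μg/mL (1.75, 1.63 and 1.45, adjusted p = 0.055, 0.099 and 0.12 by limma), and the value was 1.02 (adjusted p = 0.0069) without control replicate 1. Median centring (1.54, adjusted p = 0.11 by limma), the fit of these 2 groups alone and the NOISeq rule also gave no call. Nor did median centring without control replicate 1 (0.73, adjusted p = 0.059 by limma). At 1000 μg/mL it was -0.76 (adjusted p = 0.15) over 12 libraries and -1.35 ± 0.21 (adjusted p = 0.00021 by limma) without control replicate 1, which is a call.

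The comparison of 1000 with 100 μg/mL, which uses no control library, was called for all 3 of these genes. Their log2 fold changes were -3.50 ± 0.31 for jgi_Trias1_54328 (SE, adjusted p = 6e-06 by limma), -3.19 ± 0.46 for jgi_Trias1_57894 (adjusted p = 0.0003) and -2.37 ± 0.39 for jgi_Trias1_60885 (adjusted p = 0.00087). The ratio of mean FPKM at 100 to that at 1000 μg/mL was 11.4, 9.37 and 5.24 in the same order.

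The tested hydrophobin with the largest fold change at 1000 μg/mL was jgi_Trias1_320233, matched to a hydrophobin of T. virens. Control replicates 2 and 3 had 145 and 165 FPKM of this gene, and control replicate 1 had 46.5. It was 29.9, 44.7 and 40.7 at 100 μg/mL and 4.4, 5.83 and 0.75 at 500 μg/mL. At 1000 μg/mL it was listed at 0 in replicates 1 and 2 and at 0.75 in replicate 3. The value 0.75 was the smallest above 0 for this gene and, scaled for depth, the FPKM values at 500 μg/mL were within 0.124 of 6, 8 and 1 times it, so these levels rest on few fragments. Groups did not overlap between 0, 100 and 500 μg/mL, and control replicate 1 lay just above the 100 μg/mL libraries.

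jgi_Trias1_320233 was downregulated at the 2 higher doses. The log2 fold change, on the log2(FPKM + 1) scale, which understates the change of low values, was -1.43 ± 0.54 (SE, adjusted p = 0.16 by limma) at 100 μg/mL, -4.71 ± 0.54 (adjusted p = 6.1e-05) at 500 μg/mL and -6.44 ± 0.54 (adjusted p = 1.8e-06) at 1000 μg/mL. Without control replicate 1 it was -2.0 ± 0.47 (adjusted p = 0.013 by limma) at 100 μg/mL, a call, and -5.28 and -7.01 at the higher doses. With control replicate 1 included, the mean control FPKM was 3.09 times that at 100 μg/mL, or 118.9 against 38.4. Control replicates 2 and 3 had a mean of 155, and the mean at 100 μg/mL was 0.248 times that.

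Rises at the higher doses were found for 2 less abundant hydrophobins. jgi_Trias1_144631 is matched to hydrophobin 1 of T. asperellum. Whether it is the gene of TasHyd1 is not stated in the annotation. Control replicates 2 and 3 had 32.3 and 34.8 FPKM, and control replicate 1 had 37.1. It was 54.3, 45.4 and 41.5 at 100 μg/mL, 49.3, 68.5 and 109.96 at 500 μg/mL, and 115, 166 and 158 at 1000 μg/mL. The controls, control replicate 1 included, lay below all treated libraries, and the 1000 μg/mL libraries above all others. By limma it was upregulated at 1000 μg/mL, with a log2 fold change of 2.03 ± 0.26 (SE, adjusted p = 7.5e-05), and the ratio of mean FPKM was 4.21. Leaving out control replicate 1 gave 2.07. At 500 μg/mL it was 1.03 ± 0.26 (adjusted p = 0.015 by limma), 1.08 when control replicate 1 was left out, and this call was lost without control replicate 2 (0.98), without replicate 3 at 500 μg/mL (0.73, adjusted p = 0.063), with each library centred on its median (0.87), with the 2 groups fitted alone (adjusted p = 0.087) and by the NOISeq rule of the study's methods. At 100 μg/mL it was 0.42 (95% interval -0.15 to 0.99).

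For jgi_Trias1_59451, matched to a T. atroviride hydrophobin, control replicate 1 lay far from the other controls, and the limma call at 500 μg/mL turned on it. The FPKM was 8.0 and 9.45 in control replicates 2 and 3 but 56.4 in control replicate 1, a ratio of 6.47. It was 10.8, 8.97 and 9.33 at 100 μg/mL, 34.0, 28.8 and 28.0 at 500 μg/mL, and 36.6, 64.7 and 64.8 at 1000 μg/mL. Control replicates 2 and 3 overlapped the 100 μg/mL libraries and lay below those of the higher doses, which did not overlap each other. At 1000 μg/mL jgi_Trias1_59451 was called, with 1.64 ± 0.54 on the log2 scale (SE, adjusted p = 0.031 by limma), and the value was 2.49 ± 0.24 (adjusted p = 3.9e-06) without control replicate 1. The call was lost without control replicate 2 or 3 (1.16 and 1.26) and without replicate 2 or 3 at 1000 μg/mL (both 1.5), as it was with the 2 groups fitted alone (adjusted p = 0.12) and by the NOISeq rule. At 500 μg/mL it was 0.83 (adjusted p = 0.33 by limma) over 12 libraries and 1.68 (adjusted p = 0.0002) without control replicate 1. Between 100 and 1000 μg/mL it rose by 2.36 ± 0.54 (adjusted p = 0.0069 by limma).

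The 3 hydrophobins under the filter had few or no fragments. jgi_Trias1_57108 was listed at 0.80, 1.68 and 3.20 FPKM at 100 μg/mL, at 0.81 in control replicate 2 and at 0 elsewhere. Scaled for depth, the values at 100 μg/mL were within 0.074 of 1, 2 and 4 times the one in the control. jgi_Trias1_57227 had 2.07 FPKM in control replicate 3 and 6.14 in replicate 3 at 100 μg/mL, and jgi_Trias1_130650 had 0.39 and 0.41 in 1 library each at 100 and 1000 μg/mL. Both were listed at 0 in the other 10 libraries. With no filter, jgi_Trias1_57108 was called higher at 100 μg/mL than in the control (log2 fold change 1.16, adjusted p = 0.043 by limma), a call that rests on these few fragments.

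Counted over the 9 tested hydrophobins, 3 were called at 100 μg/mL, all of them higher (jgi_Trias1_54184, jgi_Trias1_54328 and jgi_Trias1_60885), where 5.14% of all tested genes were called, 4.60% higher and 0.538% as lower. At 500 μg/mL 2 were called higher (jgi_Trias1_54184 and jgi_Trias1_144631) and 1 lower (jgi_Trias1_320233), where 14.1% of all tested genes were called, 10.6% as higher and 3.48% as lower. In the 1000 μg/mL comparison 6 were called, 3 higher (jgi_Trias1_54184, jgi_Trias1_144631 and jgi_Trias1_59451) and 3 lower (jgi_Trias1_54328, jgi_Trias1_57894 and jgi_Trias1_320233), where 27.0% of all tested genes were called, 19.2% higher and 7.81% lower. The 3 comparisons share their control libraries. With the control and 100 μg/mL groups fitted alone and the replicate number as a block, an alternative added after the data were seen, 5 of 9 were called at 100 μg/mL, 4 higher and 1 lower, where 3.48% of all tested genes were called, 3.29% higher and 0.191% lower. The 2 gained were jgi_Trias1_57894 (1.49, adjusted p = 0.042 by limma) and jgi_Trias1_320233 (-1.43, adjusted p = 0.036). The median log2 fold change of the 9 hydrophobins was 0.42, 0.82 and -0.66 at the 3 doses.

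Without control replicate 1 the counts were 4, 4 and 8, where 8.73%, 21.2% and 33.6% of all tested genes were called. jgi_Trias1_320233 was added among the lower genes at 100 μg/mL (7.67% of tested genes were called higher and 1.05% lower), jgi_Trias1_59451 among the higher genes at 500 μg/mL (16.8% higher and 4.31% lower), and jgi_Trias1_57390 and jgi_Trias1_60885 among the lower genes at 1000 μg/mL (7.68% lower). At 1000 μg/mL this made 5 of 9 lower and 3 of 9 higher, against 25.9% of all tested genes called higher, and these counts stayed at 5 and 3 with each library also centred on its median, where 17.0% were called lower and 14.7% higher.

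**Figure D3:**
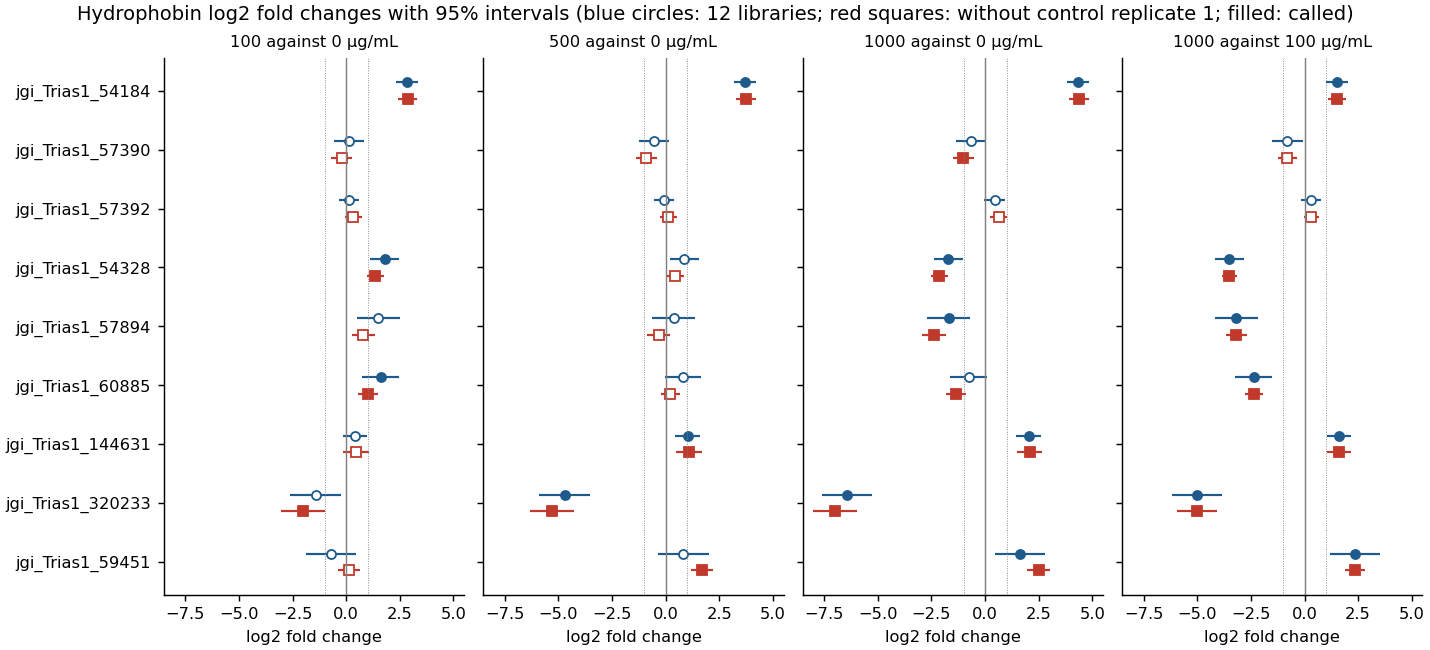
log2 fold changes of the 9 tested hydrophobins with 95% intervals (x axis) in 4 comparisons by limma, over 12 libraries (blue circles) and without control replicate 1 (red squares). Filled points were called and dotted lines mark a log2 fold change of 1 either way. jgi_Trias1_54184 lies right of the dotted line in all 4 panels, and at 1000 against 0 μg/mL jgi_Trias1_320233 lies at -6.44 and -7.01.

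Between 1000 and 100 μg/mL, without control libraries in the contrast, 7 of 9 hydrophobins were called. The 3 higher were jgi_Trias1_54184, jgi_Trias1_59451 and jgi_Trias1_144631 (1.61 ± 0.26 SE, adjusted p = 0.00079 by limma) and the 4 lower were jgi_Trias1_54328, jgi_Trias1_57894, jgi_Trias1_60885 and jgi_Trias1_320233 (-5.01 ± 0.54, adjusted p = 3.1e-05). Of all tested genes 18.5% were called there, 13.0% higher and 5.48% lower. The count was 7 also without control replicate 1, which enters only through the shared spread, where 21.0% of tested genes were called (14.6% higher and 6.46% lower). With any other library left out it was 7 too, but the share of all tested genes is not given for those runs. In the F-test over the 4 groups 7 of 9 passed at an adjusted p under 0.05, against 34.0% of all tested genes, and 9 of 9 without control replicate 1, against 56.9%. jgi_Trias1_59451 did not pass the F-test without replicate 2 at 100 μg/mL (adjusted p = 0.054) or without replicate 2 or 3 at 1000 μg/mL (0.072 and 0.066, all by limma).

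Neighbouring doses differed in fewer of these genes. From 100 to 500 μg/mL, jgi_Trias1_320233 was called lower, by -3.28 ± 0.54 on the log2 scale (SE, adjusted p = 0.0056 by limma), 1 of 9 where 2.18% of all tested genes were called, 1.92% higher and 0.258% lower. With a pseudocount of 0.1 its adjusted p was 0.051. Leaving out control replicate 1 gave 3 of 9 (4.42% of tested genes, 3.39% higher and 1.03% lower), with jgi_Trias1_57894 lower (-1.12, adjusted p = 0.0085 by limma) and jgi_Trias1_59451 higher (1.55, adjusted p = 0.00079). From 500 to 1000 μg/mL, 3 of 9 were called, all lower, where 7.54% of all tested genes were called, 5.42% higher and 2.12% lower. They were jgi_Trias1_54328 (-2.57, adjusted p = 0.00033 by limma), jgi_Trias1_57894 (-2.07, adjusted p = 0.015) and jgi_Trias1_60885 (-1.58, adjusted p = 0.025).

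From 500 to 1000 μg/mL, single libraries changed some of these calls. The call of jgi_Trias1_57894 was lost without replicate 1 or 2 at 500 μg/mL (-2.02 and -2.05) or replicate 2 or 3 at 1000 μg/mL (-2.06 and -1.90). That of jgi_Trias1_60885 was lost without replicate 1 or 2 at 500 μg/mL (-1.43 and -1.55) or any 1 library at 1000 μg/mL (-1.63, -1.61 and -1.49), and with median centring (-1.67). jgi_Trias1_320233, with control replicate 1 left out, was also called lower (-1.73, adjusted p = 0.011 by limma), as it was without replicate 3 at 500 μg/mL (-2.33), and the former gives 4 of 9 where 10.4% of tested genes were called, 7.02% higher and 3.33% lower. jgi_Trias1_144631, at 0.9955 over 12 libraries with an adjusted p of 0.032 by limma, passed the fold asked for without replicate 3 at 500 μg/mL (1.30) or replicate 1 at 1000 μg/mL (1.16).

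Control replicate 1 did not stand apart in the same way for every hydrophobin. For jgi_Trias1_54184 and jgi_Trias1_144631 its level was nearest to the mean of the other controls, with log2 differences of 0.10 and 0.14. For jgi_Trias1_57390, jgi_Trias1_57392, jgi_Trias1_54328, jgi_Trias1_57894, jgi_Trias1_60885 and jgi_Trias1_59451, 6 of the 9, it was nearest to the mean at 1000 μg/mL, and for jgi_Trias1_320233 to that at 100 μg/mL. The share of all tested genes nearest to each mean was not computed. Across all tested genes, r of control replicate 1 was lowest with the 1000 μg/mL libraries (0.801, 0.786 and 0.808). With each of the other controls it was 0.90, and it was highest with replicate 1 at 100 μg/mL (0.916). The differences from control replicates 2 and 3 ran from -2.08 for jgi_Trias1_57894 to 2.56 for jgi_Trias1_59451 on the log2 scale. Its part in the counts above is given by the values without it.

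Among the hydrophobins, the tested genes formed a few shared patterns over the libraries. Correlations here are Pearson r of log2(FPKM + 1), a description over the same 12 libraries in which every gene shares the doses and the depth of each library. The 3 genes that were highest at 100 μg/mL followed each other most closely, with r of 0.97 between jgi_Trias1_54328 and jgi_Trias1_57894, 0.96 between jgi_Trias1_57894 and jgi_Trias1_60885, and 0.96 between jgi_Trias1_54328 and jgi_Trias1_60885. Over the 11 other libraries these were 0.97, 0.97 and 0.98. The 3 genes were grouped by that dose shape in the same libraries, so high r among them follows in part from the grouping. Of all tested genes in the table, the 2 most like jgi_Trias1_57894 over 12 libraries were these other hydrophobins. This did not hold for the other members of the trio. For each of them jgi_Trias1_57894 was the most like, followed by a gene outside the family. That gene was jgi_Trias1_138684 for jgi_Trias1_54328 (r = 0.96) and jgi_Trias1_167149 for jgi_Trias1_60885 (r = 0.96). jgi_Trias1_144631 and jgi_Trias1_320233 ran most opposite over 12 libraries, with r of -0.93. Over 11 libraries r was -0.93 both for that pair and for jgi_Trias1_59451 and jgi_Trias1_320233.

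**Figure D4:**
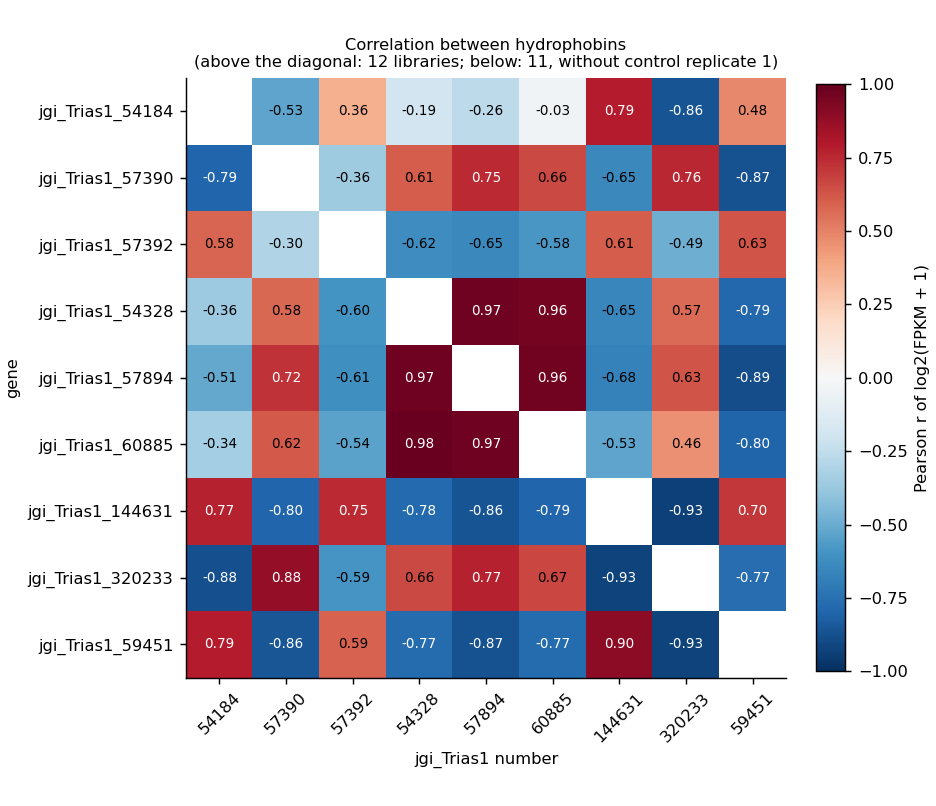
Pearson r of log2(FPKM + 1) between the 9 tested hydrophobins (rows and columns are genes), over 12 libraries above the diagonal and over 11 libraries, without control replicate 1, below it. The block of jgi_Trias1_54328, jgi_Trias1_57894 and jgi_Trias1_60885, grouped by their dose shape in these libraries, has r of 0.96 to 0.97 above the diagonal and 0.97 to 0.98 below it.

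Hydrophobin genes that lie close together were compared in the same way. In the gene order of assembly ASM2064786v1, to which all 12 hydrophobins were matched, jgi_Trias1_59451 and jgi_Trias1_144631 are separated by 1 gene, and their r was 0.70 over 12 libraries and 0.90 without control replicate 1. jgi_Trias1_57390 and jgi_Trias1_57392 are adjacent, with r of -0.36 and -0.30. Genes that are not neighbours reached values as high as the former pair, with r of 0.79 between jgi_Trias1_54184 and jgi_Trias1_144631 over 12 libraries. None of the other 8 hydrophobins had another one within 3 genes on either side.

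The genes outside the family with the pattern most like that of jgi_Trias1_54184 were jgi_Trias1_48114 (r = 0.99 over 12 libraries), jgi_Trias1_198776 (0.99) and jgi_Trias1_181777 (0.99), all annotated as hypothetical proteins. jgi_Trias1_48114 had an FPKM of 2.67 in control replicate 1, 5.86 and 6.55 in the other controls, and 259 to 383 at 1000 μg/mL. Those most like jgi_Trias1_320233 were jgi_Trias1_29286 (0.98), jgi_Trias1_32094 (0.98) and jgi_Trias1_69544 (0.97), also hypothetical proteins. jgi_Trias1_29286 had 114 FPKM in control replicate 1, 135 and 177 in the other controls, and 14.9 to 16.7 at 1000 μg/mL.

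In the deposited annotation, 7 of the 12 hydrophobins carry a Gene Ontology term and 0 carry a KEGG entry. The term fungal-type cell wall was given to 5 genes of the table, all of them hydrophobins, and filamentous growth to 2 genes, both of them hydrophobins. A summary by these terms is thus a summary of the hydrophobins themselves.

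Other proteins of the fungal surface were also compared between 1000 μg/mL and the controls. Of 3 cell wall and GPI-anchored proteins, 1 was called higher and 1 lower at 1000 μg/mL over 12 libraries, and 1 lower without control replicate 1. The most abundant, jgi_Trias1_426682, matched to a putative cell wall protein sed1, had 599, 974 and 1162 FPKM in the 3 controls, with control replicate 1 the lowest, and 389.7, 279 and 616 at 1000 μg/mL, a log2 fold change of -1.11 (adjusted p = 0.013 by limma), or -1.39 (0.0011) without control replicate 1. The gene called higher, jgi_Trias1_43235, had 1.07 on the log2 scale over 12 libraries and 0.68 over 11. Of 4 expansin-like proteins, which loosen plant cell walls, 1 passed the filter. This gene, jgi_Trias1_58369, had 2109 FPKM in control replicate 1, 1143 and 939.7 in the other controls, and 475.0, 333 and 626 at 1000 μg/mL. It was called lower at that dose, with a log2 fold change of -1.5 (adjusted p = 0.016 by limma), and was called lower also without control replicate 1 (-1.16, adjusted p = 0.035).

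The cerato-platanins are another family of small secreted surface proteins of Trichoderma. EPL1 (jgi_Trias1_153364) had 75.0 FPKM in control replicate 1, 25.1 and 38.3 in the other controls, and 27.9, 33.3 and 34.3 at 1000 μg/mL. It differed at that dose by -0.39 on the log2 scale (adjusted p = 0.37 by limma) over 12 libraries and 0.03 (0.92) without control replicate 1. jgi_Trias1_139663, the other member found, had at most 0.88 FPKM. Regulators of development found by symbol were VEL1, VEL2 and LAE1, of which VEL1 and LAE1 take part in conidiation in other Trichoderma species. VEL1 (jgi_Trias1_27876) had 385 FPKM in control replicate 1, 352 and 410.2 in the other controls, and 223 to 281 at 1000 μg/mL, with a log2 fold change of -0.56 (adjusted p = 0.076 by limma), or -0.55 (0.070) without control replicate 1. VEL2 (jgi_Trias1_150083) had 118 FPKM in control replicate 1 against 44.7 and 56.5 in the other controls, and 77.0, 79.6 and 85.4 at 1000 μg/mL. For VEL2 the log2 fold change was 0.27 (adjusted p = 0.50 by limma) over 12 libraries and 0.67 (0.0038) over 11, under the fold asked for. LAE1 (jgi_Trias1_140005) had 81.0 FPKM in control replicate 1, 6.56 and 12.5 in replicates 2 and 3, and 15.5 to 21.4 at 1000 μg/mL. The direction for LAE1 turned with that library, from -0.15 (adjusted p = 0.88 by limma) with it to 0.86 (0.035) without it, and neither value was called. Words for conidiation, for CFEM proteins and for velvet proteins matched 0 genes of the annotation, so no marker of conidiation was followed.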

How the data were processed

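RNA of 12 libraries was measured, 3 per group, and the titles gave the group and replicate of each. The authors deposited FPKM per gene, already scaled to transcript length and library size, against the Trias1 genome of the JGI. The submitters' processing notes name BWA, Bowtie and RSEM, with settings not given in the sources used here. Fragments shared between similar hydrophobin genes could be split between them at this stage. FPKM hold no counts, so depth is known only relative to other libraries, from the smallest steps of low values, and no counting interval is given. The columns of values without an assigned library numbered 0.

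Here, log2(FPKM + 1) was tested with limma 3.58.1 (R 4.3.3) for genes whose FPKM averaged 1 or more, in a single fit of the 4 groups with eBayes following the intensity trend. limma was used in place of NOISeq, the rule of the study's methods (probability above 0.8, absolute log2 ratio above 1), since NOISeq gives no p-value. That rule was rewritten in Python 3.11.15 with numpy 2.4.6, pandas 2.3.3 and numba 0.67.0, with 0 replaced by 0.01, as an alternative. Both were tested on simulated data. Figures were drawn with matplotlib 3.10.9. For a single gene, 3 libraries against 3 allow no two-sided p below 0.1 by exact permutation.

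Each hydrophobin that passed this filter was described in every library and the others by their values above 0. For the most abundant one and the one with the largest fold change, the 3 tested genes with the highest r were named, and of each comparison list the most abundant gene. Members and lists were chosen with earlier results of these data known, the lists by RefSeq symbol after the annotation words had matched no gene. jgi_Trias1_139663, jgi_Trias1_43235, VEL2 and LAE1 were named after their values were seen. So were the genes most like jgi_Trias1_54328, jgi_Trias1_57894 and jgi_Trias1_60885. RefSeq names were matched through the number in the older locus tag, for 10140 of 11647 genes, and 52 of 52 genes so given a ribosomal protein symbol were annotated as ribosomal. Protein and promoter sequences were not used here. The alternatives were a pseudocount of 0.1, no filter or a mean of at least 5, TPM, median centring, no trend, the replicate number as a block, 2 groups alone, the NOISeq rule and leaving out each library. The labels give replicate numbers but not what they mark. Deviations from the group means of same-numbered libraries correlated by 0.166 to 0.495 between the control and 100 μg/mL groups, above 0.1 in 3 of 3 pairs. That comparison was therefore also fitted alone with the number as a block. Differently numbered libraries of these 2 groups gave -0.469 to 0.37. The highest, control replicate 2 with replicate 3 at 100 μg/mL, lay above the 0.166 of control replicate 2 with its same-numbered library. These values do not show that the numbers mark pairs. In the other 5 comparisons not every same-numbered pair was above 0.1 (-0.319 to 0.408).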

Additional observations from a re-analysis of the deposited data

How the results depend on the processing

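Of 54 log2 fold changes of the 9 tested hydrophobins in 6 comparisons, 23 were called over 12 libraries. Of the called ones, 15 were called under every alternative run, and 12 of the others were called under at least 1. No called value changed direction under any alternative. The count at 100 μg/mL fell from 3 to 1 when the 2 groups were fitted alone, where jgi_Trias1_54328 and jgi_Trias1_60885 were not called. Leaving out 1 library at a time gave 2 to 4 calls at 100 μg/mL, 2 to 4 at 500 μg/mL, 5 to 8 at 1000 μg/mL, 7 between 1000 and 100 μg/mL and 6 to 9 in the F-test. The NOISeq rule called 2, 2 and 5 at the 3 doses over 12 libraries and, a combination added after the data were seen, 4, 2 and 7 without control replicate 1. In all, it called 0.661%, 1.92% and 4.64% of the genes above 0 over 12 libraries and 2.16%, 5.94% and 11.1% over 11. With no filter the count was 4 at 100 μg/mL and 8 between 1000 and 100 μg/mL, through jgi_Trias1_57108. Median centring gave 2, 2 and 6 at the 3 doses, where 5.33%, 13.9% and 26.8% of all tested genes were called. Without control replicate 1 it gave 3, 4 and 8, where 7.62%, 20.1% and 31.7% were called. The share of all genes is not given for 2 groups fitted alone without a block, no filter or the block over 12 libraries. It is also not given for leaving out any library but control replicate 1. Those counts describe the hydrophobins alone.

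With the replicate number as a block over 12 libraries, the counts were 3, 3, 6 and 7 and 7 in the F-test, and no call changed. The block in the control and 100 μg/mL groups fitted alone, added after the data were seen, gave 5 calls at 100 μg/mL. What depth limits is jgi_Trias1_320233 at the higher doses and the 3 genes under the filter, whose FPKM rest on few fragments.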
